A study of Mus musculus with 6 samples.

Results

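Thyroid hormone handling was examined through 9 genes in RNA sequencing of the mouse nucleus accumbens, a ventral striatal region of the reward circuit. The genes were Ttr, Slco1c1, Dio2, Dio3, Crym, Thra, Thrb, Klf9 and Hr, taken by symbol from the 21203 gene symbols of the authors' deposited table, in which each has 1 record. They cover the carrier, transport, activation, inactivation, intracellular binding, receptors and targets of the hormone, and the set was chosen by the deposited fold changes of Ttr and Dio2, which were higher after cocaine in this same table. The values of the set are therefore a description of that comparison and no independent evidence for it.

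The C57BL/6 mice were injected intraperitoneally each day for 7 days, with cocaine at 20 mg/kg in one group and with saline in the other, and the accumbens was taken 4 h into withdrawal. In the labels the protocol text for saline is the cocaine text, so the grouping rests on the treatment label alone. Each group has 3 libraries, and neither the sex or age of the animals nor whether a library holds 1 animal or a pool is given in the sources used here. The authors' deposited table gives 1 value per group and gene in FPKM (fragments scaled by transcript length and library total), a log2 fold change of cocaine over saline, and a p-value and q-value from the authors' test. No value per library was analysed here, so no SD stands beside a level, the depth is unknown, and whether the deposited p-values reflect differences between animals or only technical spread is not given. Of 14959 tested records, 1.23% passed a deposited q of 0.05, the threshold for a call used here, with 0.521% higher and 0.709% lower after cocaine. An unadjusted deposited p under 0.05 was reached by 5.76% of tested records in either direction, a share not matched in level to any gene list below. The markers of medium spiny neurons, which make up most striatal neurons, were abundant in both groups: Penk stood at 1531 and 1498 FPKM and Ppp1r1b at 829 and 795 FPKM, and 0 of the 12 markers were called (0 higher and 3 lower at an unadjusted deposited p under 0.05).

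The thyroid gland releases mostly thyroxine, a prohormone that reaches the brain through carriers in blood and cerebrospinal fluid and through transporters at the blood-brain barrier. Within the brain, astrocytes convert it with type 2 deiodinase into triiodothyronine, while type 3 deiodinase, found mostly in neurons, inactivates both. Triiodothyronine binds nuclear receptors that sit on DNA with or without hormone, and a set of target genes then changes its transcription.

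In the saline group the 9 genes spanned a 581-fold range of level, from Ttr at 0.668 FPKM to Thra at 388 FPKM. All 9 were tested by the authors. By the deposited q, 2 were called higher after cocaine (Ttr and Dio2), 1 was called lower (Crym), and 6 were not called. Since this comparison chose the set, nothing is read from the excess of these calls over the 1.23% of all tested records. All 9 reached 1 FPKM in the higher group and 8 did so in both groups, the exception being Ttr, which passed only through its cocaine value. The median log2 fold change over the 9 genes was 0.012, against -0.02 over all tested records.

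**Figure D1:**
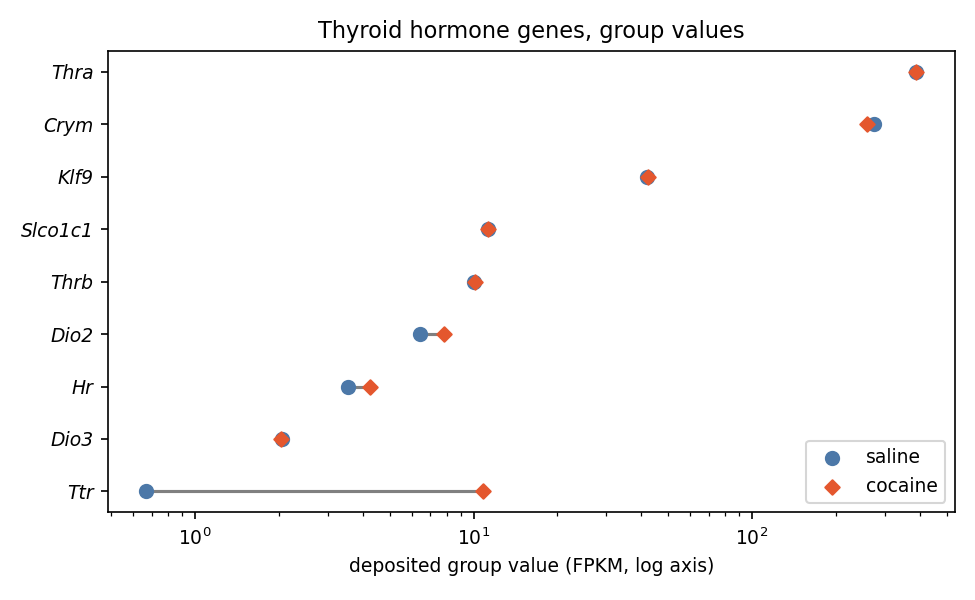
Deposited group values of the 9 genes in FPKM on a log axis, saline as circles and cocaine as diamonds, 1 value per group with no error available. The 2 symbols of Ttr lie at 0.668 and 10.8 FPKM, while those of Thra, Klf9, Slco1c1, Thrb and Dio3 nearly coincide.

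Ttr encodes transthyretin, a carrier of thyroxine and of retinol-binding protein that is secreted in large amounts by the choroid plexus. In the authors' deposited table it stood at 0.668 FPKM after saline and 10.8 FPKM after cocaine, a difference of 10.2 FPKM. Its fold was 16.2 and its log2 fold change was 4.02, and the authors' deposited table lists both its p and its q as 0. Ttr was ranked among 12976 tested records of at least 1 FPKM in either group, with records holding a group value of 0 left out. Only the predicted gene Gm13235 had a higher log2 fold change (6.75), and it was not called. This rank rests on the fold by which Ttr was chosen, and Ttr passed the level filter only through its cocaine value. The saline value of Ttr was low, with 9.69% of tested records below it, and with a pseudocount of 1 added to both values the log2 fold change was 2.83. A p of 0 allows no standard error to be derived, so no interval is given for Ttr.

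Markers of the choroid plexus, the secretory epithelium of the ventricles, were examined beside Ttr. Of 26 such genes, 18 had a higher value in the cocaine group and 8 a lower one, and 0 of the 13 tested were called (1 higher and 0 lower at an unadjusted deposited p under 0.05). Their summed level was 74.3 FPKM after saline and 76.0 FPKM after cocaine. That sum was mostly Enpp2, a secreted lysophospholipase that oligodendrocytes also make, at 39.9 and 42.8 FPKM, followed by Igf2, a growth factor also made by meninges, at 9.25 and 6.84 FPKM and Cab39l at 6.32 and 6.46 FPKM.

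The rarer markers had a different balance, a split made, and its genes named, after the values were seen. The 19 markers below 1 FPKM in both groups summed to 3.14 FPKM after saline and 4.40 FPKM after cocaine, and 15 of them were higher and 4 lower after cocaine. Among all 5785 records below 1 FPKM in both groups with unequal values, 47.9% were higher after cocaine. Kcnj13, a potassium channel of the plexus epithelium, stood at 0.0658 and 0.581 FPKM, and Folr1, a folate receptor of the same cells, at 0.234 and 0.618 FPKM. Neither passed the authors' test, with a deposited p of 0.0890 for Kcnj13 and 0.490 for Folr1. Most of the 19 markers were not tested by the authors, and the rise of their sum lay mostly in Kcnj13 and Folr1. Aqp1, a water channel, stood at 0.117 and 0.158 FPKM, and Kcne2, a channel subunit, at 0.0594 and 0.104 FPKM, and neither was tested. The 4 rarer markers that were lower after cocaine were Lbp at 0.567 and 0.442 FPKM, Slc13a4 at 0.399 and 0.335 FPKM, Col8a1 at 0.244 and 0.238 FPKM, and Cldn1 at 0.1695 and 0.1686 FPKM. Among the more abundant markers, Clic6, a chloride channel protein of the plexus, was also lower in value, at 6.42 and 5.65 FPKM. No marker was listed at 0 in both groups, and Wfdc2 was listed at 0 after saline and at 0.0447 FPKM after cocaine. The part of choroid plexus tissue in the Ttr value was not tested, and in bulk tissue a change in the number of cells of a type cannot be told apart from a change in RNA per cell.

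**Figure D2:**
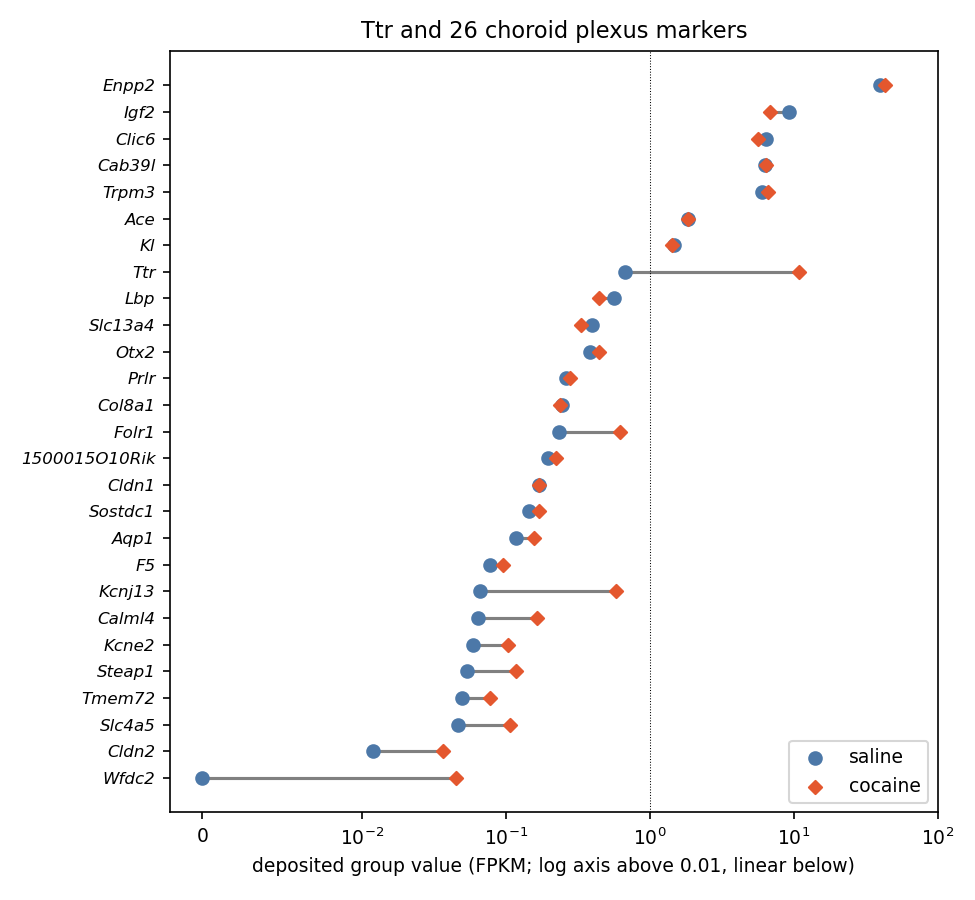
Deposited group values of Ttr and 26 choroid plexus markers in FPKM, saline as circles and cocaine as diamonds, on an axis that is logarithmic above 0.01 and linear below, with a dotted line at 1 FPKM. Of the 19 markers left of the line in both groups, 15 lie higher after cocaine, each at under 1 FPKM. Most of the 19 were not tested by the authors. Ttr crosses the line from 0.668 to 10.8 FPKM.

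Ependymal cells line the same ventricles, and all 8 of their matched markers were lower in value after cocaine. They summed to 19.1 FPKM after saline and 16.7 FPKM after cocaine, with a median log2 fold change of -0.28 against -0.02 over all tested records. That median was -0.14 with a pseudocount of 1, -0.17 over the markers of at least 1 FPKM and -0.12 with the trend of fold change with GC content and transcript length removed. By the authors' deposited test 0 of the 8 were called, and 0 had an unadjusted p under 0.05. The most abundant were Rarres2, the chemerin precursor, at 5.62 and 5.24 FPKM, 1110017D15Rik at 5.40 and 4.81 FPKM, and Rsph1, a ciliary protein, at 3.07 and 2.80 FPKM.

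Genes that handle retinol, the other cargo of transthyretin, gave a single call, which was lower after cocaine. In the authors' deposited table Rbp4, the retinol-binding protein that transthyretin carries, stood at 10.3 and 9.40 FPKM (p = 0.303), and Stra6, its cell-surface receptor, stood at 5.51 and 4.30 FPKM (q = 0.610). Both were named after their values were seen. Of 13 tested genes of retinol carriage and signalling, 0 were called higher and 1 lower by the authors' deposited test. Of the 13 genes, 3 lay above 0 and 10 below, with a median log2 fold change of -0.10.

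Slco1c1 encodes an organic anion transporter that moves thyroxine across brain endothelium and into astrocytes. It stood at 11.2 FPKM after saline and 11.3 FPKM after cocaine, with a log2 fold change of 0.0080 and p = 0.934 in the authors' deposited table. Dividing the deposited log2 fold change by the normal quantile of its deposited p gives an approximate standard error, here 0.0960, on the assumption that the authors' statistic was normal. The 95% interval from it ran from -0.18 to 0.20, so that values of either sign within those bounds are compatible with the deposited p. The median of such errors over tested records of at least 1 FPKM was 0.122. Endothelial markers were mostly lower in value after cocaine, with 14 of 17 below 0 and a sum of 112 and 97.1 FPKM. Their median log2 fold change was -0.30, against -0.02 over all tested records, and -0.16 with a pseudocount of 1. By the deposited q, 1 of the 17 was called (Cldn5, 10.2 to 7.46 FPKM, q = 0.00123 in the authors' deposited table). At an unadjusted deposited p under 0.05, 0 of the 17 endothelial markers were higher and 4 lower, beside 5.76% of all tested records in either direction. The most abundant endothelial marker was Slc2a1, the glucose transporter of the barrier, at 28.0 and 25.0 FPKM. Itm2a followed at 16.2 and 14.7 FPKM and Ly6c1 at 12.9 and 12.03 FPKM. The part of endothelial cells in the Slco1c1 value was not tested.

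Other transporters that carry thyroid hormone, among other substrates, gave 0 calls among 7 tested, with 1 above 0 and 6 below and a median log2 fold change, per the authors' deposited table, of -0.08. Slc7a5, the light chain of an amino acid exchanger that also carries thyroid hormone, stood at 11.4 and 9.48 FPKM (log2 fold change -0.27, p = 0.000649, q = 0.0605 in the authors' deposited table). Its heavy chain Slc3a2 stood at 27.7 and 24.7 FPKM (log2 fold change -0.17, p = 0.00865, q = 0.419 in the authors' deposited table). The other light chain of the list, Slc7a8, stood at 15.02 and 14.41 FPKM. None of these passed the threshold.

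The deiodinases are selenoproteins, in which a UGA codon of the mRNA is read as selenocysteine at the active site. Type 2 deiodinase (Dio2) removes an outer-ring iodine and so makes triiodothyronine, and type 3 deiodinase (Dio3) removes an inner-ring iodine and so inactivates the hormone. The stretches around the annotated selenocysteine codons, read from the GENCODE mouse release M21 transcripts (GRCm38), are shown. Those at codons 126, 130 and 170 mark what the enzymes share, while that at codon 263 is annotated for Dio2 only. TGA in capitals is the selenocysteine codon, and the flanking codons are in lower case.
Dio1, codon 126 of 257: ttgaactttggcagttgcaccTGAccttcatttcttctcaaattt
Dio2, codon 130 of 266: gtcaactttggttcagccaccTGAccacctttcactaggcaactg
Dio3, codon 170 of 304: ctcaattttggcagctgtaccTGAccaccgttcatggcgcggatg
Dio2, codon 263 of 266: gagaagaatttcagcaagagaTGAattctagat
Dio2 carries 2 annotated selenocysteine codons, and the second lies 3 codons before the end of its coding sequence. Positions are counted from the annotated first codon of the transcript used.

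Dio2 stood at 6.42 FPKM after saline and 7.84 FPKM after cocaine, a difference of 1.43 FPKM or 22.2% of the saline value. The log2 fold change was 0.29 with q = 2.21e-05 in the authors' deposited table, values by which the gene was chosen. The error derived from the deposited p was 0.0537, and 85.1% of tested records of at least 1 FPKM had a larger one. This error is computed from the same fold and p, so its rank is no independent measure of precision. Dio3 stood at 2.06 and 2.04 FPKM, a log2 fold change of -0.014 with p = 0.962 in the authors' deposited table. Its derived 95% interval ran from -0.57 to 0.55 and held the Dio2 value, so at this precision Dio3 is compatible with no change and with a change of the size seen for Dio2. The ratio of the Dio2 to the Dio3 level in FPKM was 3.12 after saline and 3.85 after cocaine. The third deiodinase, Dio1, was listed at 0 in both groups and was not tested.

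Dio2 is made by astrocytes and by tanycytes, glial cells of the ventricle floor. Of 16 astrocyte markers, 0 were called by the authors' deposited test, with 9 above 0 and 7 below, a median log2 fold change of 0.012 and a sum of 2466 and 2543 FPKM. Among their 3 most abundant, Aldoc stood at 796 and 787 FPKM, Glul at 620 and 629 FPKM, and Slc1a2, the main glutamate transporter, at 377 and 453 FPKM (p = 0.0345, q = 0.968 in the authors' deposited table). At an unadjusted deposited p under 0.05, 3 of the 16 astrocyte markers were higher and 2 lower, beside 5.76% of all tested records in either direction. Tanycyte markers summed to 44.1 and 40.2 FPKM, with 0 calls among 5 tested and 1 lower at an unadjusted deposited p under 0.05 (Nes, 1.34 and 0.994 FPKM), and the sum was mostly Lhx2 at 25.3 and 24.6 FPKM and Vim at 16.0 and 13.2 FPKM, which other cells also make. Rax, the defining factor of tanycytes, stood at 0.0443 and 0.0565 FPKM. The part of these cells in the Dio2 value was not tested.

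The promoters of the 2 deiodinases differed in composition. RefSeq (GRCm38.p6) promoters were examined for 5 of the 9 genes, Slco1c1, Dio2, Dio3, Thrb and Klf9, with 2 starts for Thrb. Those of Ttr, Crym, Thra and Hr were not examined, which does not mean that RefSeq lacks them. The 250 bases before each start were searched on both strands for TGACGTCA (the cyclic AMP response element), AGGTCA (the half-site of thyroid hormone receptors), GGGCGG (the GC box) and TATAAA (the TATA box). Over 32851 promoters of the same length these letters were found in 1.55%, 14.0%, 32.7% and 12.4%, respectively. The promoters of Dio2, Dio3 and the upstream start of Thrb are shown, with matched bases in capitals. That of the downstream Thrb start, which also holds a match, is not shown.
Dio2, chr12:90739039-90739288, minus strand: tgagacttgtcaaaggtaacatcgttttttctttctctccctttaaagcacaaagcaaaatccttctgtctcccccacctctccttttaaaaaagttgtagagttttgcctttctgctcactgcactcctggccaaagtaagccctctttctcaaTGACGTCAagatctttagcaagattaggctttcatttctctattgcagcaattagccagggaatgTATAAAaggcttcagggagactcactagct
Dio3, chr12:110278980-110279229, plus strand: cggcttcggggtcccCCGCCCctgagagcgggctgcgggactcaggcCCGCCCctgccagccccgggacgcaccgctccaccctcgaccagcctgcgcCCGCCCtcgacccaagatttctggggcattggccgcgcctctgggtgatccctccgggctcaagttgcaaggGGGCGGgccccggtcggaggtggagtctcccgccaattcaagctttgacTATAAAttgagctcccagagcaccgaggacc
Thrb upstream start, chr14:17660710-17660959, plus strand: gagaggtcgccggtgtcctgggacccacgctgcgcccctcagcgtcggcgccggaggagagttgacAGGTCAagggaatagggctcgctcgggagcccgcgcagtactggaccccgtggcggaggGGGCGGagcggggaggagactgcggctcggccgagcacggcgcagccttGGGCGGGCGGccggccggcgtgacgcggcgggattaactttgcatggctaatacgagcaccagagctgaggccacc
The Dio2 stretch holds TGACGTCA from 95 to 88 bases before the start and TATAAA from 30 to 25 bases before it. The Dio3 stretch holds 4 GC boxes and TATAAA from 31 to 26 bases before the start. The Thrb stretch holds AGGTCA from 184 to 179 bases before the start and 3 GC boxes, of which 2 overlap. GC content was 41.6% for Dio2, 69.6% for Dio3 and 71.6% for Thrb, against a median of 52.4% over all promoters. The stretches of Slco1c1 and Klf9 held none of the 4 motifs, and that of the downstream Thrb start held TATAAA only, from 167 to 162 bases before it. A match describes the letters and is no measured binding site.

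Enzymes and factors that make or turn over the deiodinases gave 0 calls among 10 tested genes in the authors' deposited table, and 0 with an unadjusted p under 0.05, with a median log2 fold change of 0.012. Of these 10, 6 lay above 0 and 4 below, between -0.09 and 0.15. The most abundant were March6, a ubiquitin ligase of the endoplasmic reticulum, at 57.7 and 58.2 FPKM, and Wsb1, a subunit of the ligase that marks type 2 deiodinase for degradation, at 41.7 and 41.5 FPKM.

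**Figure D3:**
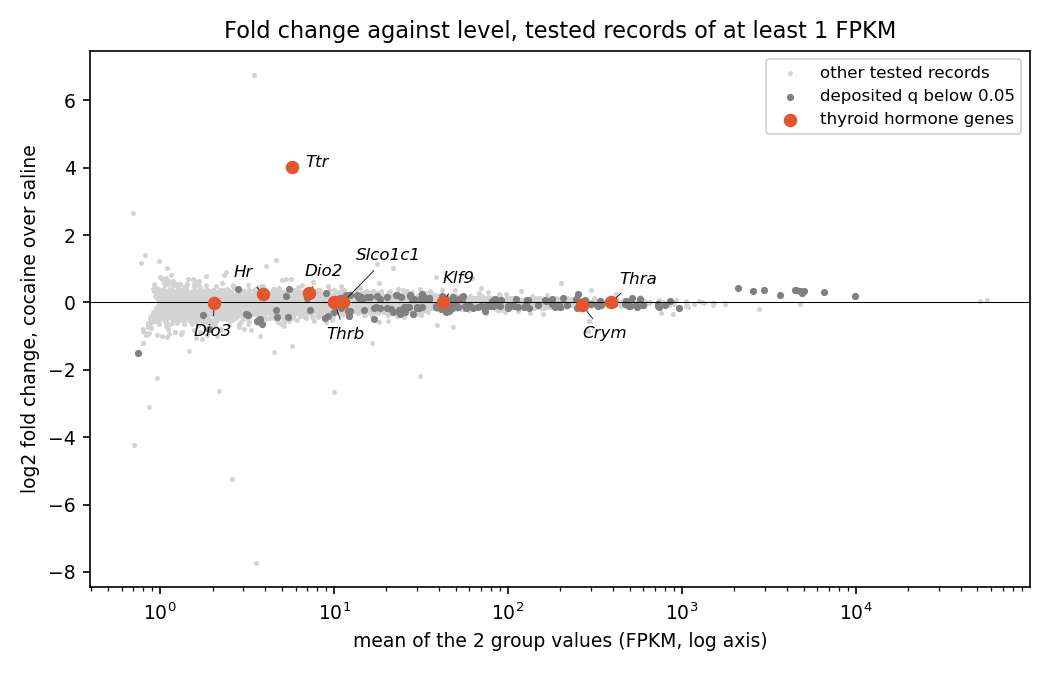
Deposited log2 fold change of cocaine over saline against the mean of the 2 group values in FPKM (log axis), for tested records of at least 1 FPKM in either group. Light points are all such records, dark points those with a deposited q under 0.05, and red points the 9 genes. Ttr lies at 4.02 above the band that holds most records, and Dio2 lies at 0.29 near the band's upper side.

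Crym encodes mu-crystallin, a cytosolic protein that binds triiodothyronine and is abundant in the striatum. It stood at 273 FPKM after saline and 259 FPKM after cocaine, and ranked at position 179 of 14959 tested records by saline level. It fell by 5.01% of the saline value, with a log2 fold change of -0.07 and q = 0.00527 in the authors' deposited table. The derived 95% interval ran from -0.11 to -0.04, and 99.4% of tested records of at least 1 FPKM had a larger derived error. With the median of tested records of at least 1 FPKM subtracted, the log2 fold change of Crym was -0.05. A change of this size was common, since 29.0% of the 12976 records lay at or below it and 97 of those 3764 were called.

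The receptors gave no call. Thra, the alpha receptor gene, whose transcripts encode both a hormone-binding form and a form that does not bind hormone, stood at 388 and 389 FPKM, at position 110 of the tested records by saline level. Its log2 fold change was 0.0033 with p = 0.897 in the authors' deposited table, and the derived 95% interval ran from -0.05 to 0.05. Thrb, the beta receptor gene, stood at 10.003 and 10.09 FPKM, with p = 0.846 in the authors' deposited table and a derived interval from -0.12 to 0.14. Thra was 38.8 times as abundant as Thrb after saline and 38.5 times after cocaine, in FPKM.

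The Thra value is uncertain at its 3' end, where the gene overlaps Nr1d1, a clock repressor gene on the opposite strand. The exons of the pair share 263 bases in GENCODE release M21, which is 5.70% of the exonic bases of Thra and 8.55% of those of Nr1d1. The strand setting of the counting is not given in the sources used here, so reads in the shared stretch cannot be told apart. Nr1d1 fell from 47.4 to 41.3 FPKM (log2 fold change -0.20, q = 3.70e-05 in the authors' deposited table). The exons of Dio2 overlap those of Gm26512, a noncoding gene on the opposite strand, over 100 bases, and Gm26512 was not analysed here. The same release places 3 noncoding records, Gm48320, Gm24140 and Gm48321, within Thrb and a microRNA, Mir1192, within Klf9, with 0 exonic bases shared.

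Receptor partners and cofactors, which form the complexes that thyroid receptors recruit, gave 0 calls among 14 tested genes in the authors' deposited table, with 1 lower at an unadjusted p under 0.05. That gene was Rxrg, a striatal retinoid X receptor and so a dimer partner of the thyroid receptors, at 48.4 and 44.6 FPKM (p = 0.0293, q = 0.890 in the authors' deposited table). The corepressor Ncor1 stood at 71.5 and 74.8 FPKM in a record marked as failed, so it has no test. The median log2 fold change of the 14 was -0.02, the same to 2 decimals as that of all tested records.

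The 2 target genes differed in fold and in precision. Klf9, a zinc finger factor that triiodothyronine induces in neurons, stood at 42.1 and 42.4 FPKM, with a log2 fold change of 0.012 and p = 0.669 in the authors' deposited table. Its derived 95% interval ran from -0.04 to 0.07, which does not reach the value of Dio2. Hr encodes hairless, a corepressor of the thyroid receptors that the hormone induces in brain. It stood at 3.55 and 4.24 FPKM, 19.5% higher in the cocaine group, with a log2 fold change of 0.26 and p = 0.562 in the authors' deposited table. That fold lies close to the 22.2% of Dio2, but the derived error of Hr was 0.444 and its interval ran from -0.61 to 1.13, so the difference was not distinguishable from 0. Only 4.86% of tested records of at least 1 FPKM had a larger derived error than Hr.

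**Figure D4:**
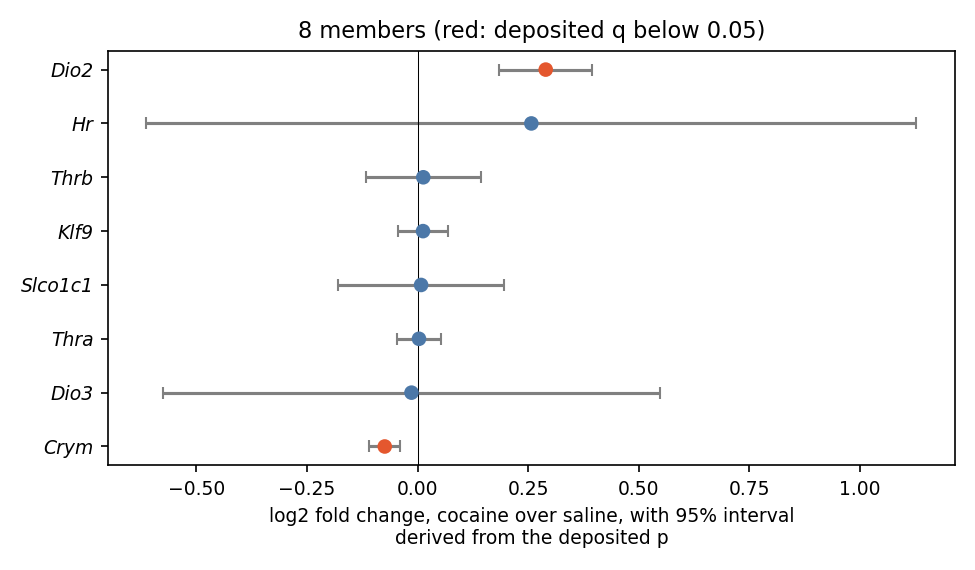
Deposited log2 fold change of cocaine over saline for the 8 genes other than Ttr, with 95% intervals derived from the deposited p under a normal statistic. Red marks the genes with a deposited q under 0.05, which are Dio2 and Crym. The intervals of Hr and Dio3 are the widest, from -0.61 to 1.13 and from -0.57 to 0.55, and both hold 0 and the Dio2 value.

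Other genes known to respond to thyroid hormone in rodent brain gave 0 calls among 18 tested in the authors' deposited table, with 10 above 0 and 8 below and a median log2 fold change of 0.010. At an unadjusted p under 0.05, 3 of the 18 were higher and 2 lower, beside 5.76% of all tested records in either direction. The most abundant, the myelin protein gene Mbp, stood at 1237 and 1264 FPKM, with p = 0.0114 and q = 0.507 in the authors' deposited table. Nefh, the heavy neurofilament subunit, had the smallest p of the list (6.36 and 7.73 FPKM, p = 0.00108, q = 0.0918 in the authors' deposited table). The next smallest p belonged to Nrgn, a postsynaptic calmodulin-binding protein gene, which was lower in value after cocaine (213 and 205 FPKM, p = 0.00514, q = 0.292 in the authors' deposited table). Nefm, the medium neurofilament subunit (46.7 and 49.1 FPKM), and Dbp, a clock output factor (98.7 and 90.7 FPKM), were the other two with an unadjusted p under 0.05. Rasd2, a striatal small GTPase known as a thyroid hormone target in rat, was named after its value was seen and stood at 196.4 and 195.7 FPKM, with a deposited log2 fold change of -0.0051.

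The hormones and receptors of the thyroid axis were scarce. Of 8 genes, 6 stayed below 1 FPKM in both groups, Cga was listed at 0 in both, and Pax8 was listed at 0 in the cocaine group. Of the 3 tested genes 0 were called in the authors' deposited table, and 0 had an unadjusted p under 0.05. Trhr, the receptor for thyrotropin-releasing hormone, stood at 6.01 and 5.76 FPKM, and Trh, its ligand, at 2.47 and 2.62 FPKM.

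Across these 6 related lists, 1 of 65 tested genes was called, which is 1.54% against 1.23% of all tested records. At an unadjusted p under 0.05 there were 11 in the authors' deposited table, 4 higher and 7 lower, or 16.9% against 5.76% of all tested records. No list of random genes was drawn for comparison, and the lists were not matched to all tested records in level or derived error. These shares are a description.

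**Figure D5:**
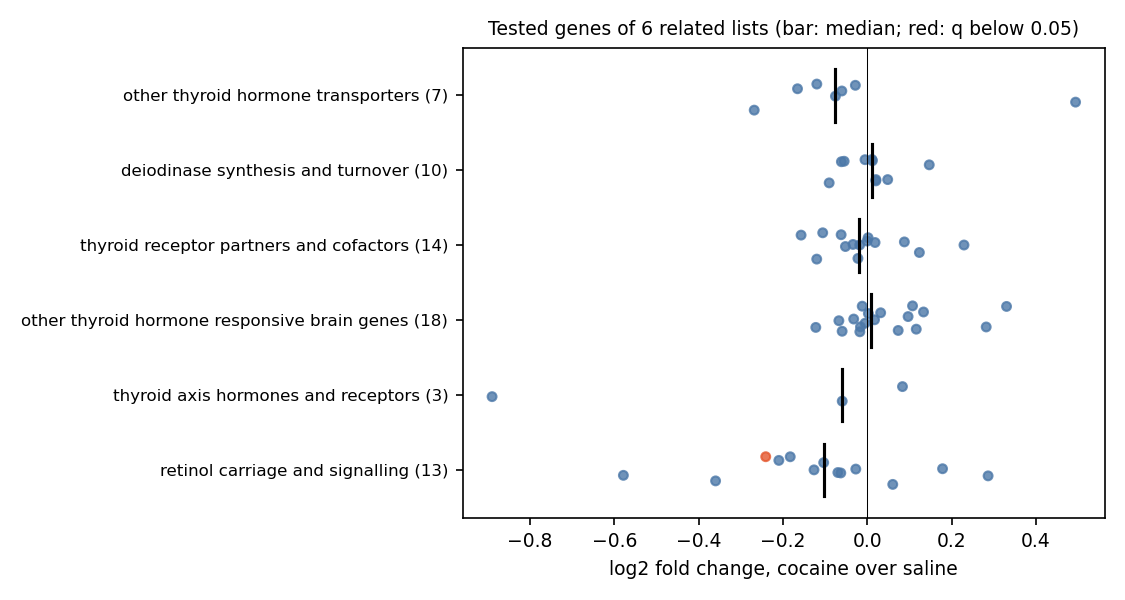
Deposited log2 fold change of cocaine over saline for the tested genes of 6 lists related to thyroid hormone, 1 point per gene, with the number tested in brackets and a bar at the list's median. Red marks the 1 gene with a deposited q under 0.05. The medians lie between -0.10 and 0.012.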

How the data were processed

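RNA from 3 cocaine and 3 saline libraries was sequenced, and the processing notes of the submitters name TopHat2 2.0.6, Cufflinks 2.0.2 and the build NCBIM37. The sources used here do not give the annotation, strand or settings. Per the file headers the columns are those that Cuffdiff writes per gene, so the group values were taken as FPKM made by the authors over the libraries of a group. FPKM divides by length and library total, so a gain in abundant transcripts lowers the others. Among abundant records called higher were mt-Co2 at 9190 and 10491 FPKM and mt-Cytb at 5835 and 7299 FPKM, examples and not a full list. The scaling without mitochondrial records dropped them by symbol. It kept Gm10222 at 3917 and 5079 FPKM, nearly the values of mt-Nd4l. The part of such gains in small falls, as that of Crym, was not tested. The log2 fold change, p-value and q-value are the authors' own and were copied as deposited. They differed by at most 1.28e-05 from the log2 ratio of the group values over tested records, 11 with a group value of 0 left out.

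Of 21540 records 14959 were marked as tested, and a call is a deposited q under 0.05. Benjamini-Hochberg adjustment of the deposited p-values over those 14959 records would call 199, among them all 184 deposited calls, since the deposited q-values are larger. No test between libraries could be fitted. The standard errors were derived from the deposited p-values under a normal statistic, and the functions were tested on simulated data (Python 3.11.15, pandas 2.3.3, scipy 1.17.1). Symbols with several records are represented by the one of highest mean FPKM. Transcript length and GC content came from the longest GENCODE M21 transcript, found for 97.4% of genes of at least 1 FPKM, and the build differs from that of the authors.

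The members and all 13 lists were chosen with earlier results of these data known. Of list genes, the text names called genes (at most 4 by q), otherwise the 2 of highest FPKM and those with an unadjusted p under 0.05 (at most 3), and the 3 most abundant markers of each cell type. A few list genes that enter the counts are not reported here by name. The genes most like a called member are the 3 nearest in log2 fold change. Alternatives were other adjustments, a pseudocount, a minimum level, other scalings and removal of the GC and length trend.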

Additional observations from a re-analysis of the deposited data

How the results depend on the processing

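The count of members called was 3 at the deposited q of 0.05, at a q of 0.1, at an unadjusted p under 0.05 and with adjustment over tested records of at least 1 FPKM. All of these settings reuse the deposited p-values, whose lowest value among uncalled members was 0.562 (Hr). The count could therefore hardly change, and its stability is no test of the calls. Settings that change the fold were not carried to a call. The count among the related lists was 1 as deposited and with the minimum of 1 FPKM, 2 with adjustment over records of at least 1 FPKM (Slc7a5 joining at 0.0423), 3 at a q of 0.1 (Slc7a5 and Nefh joining) and 11 at an unadjusted p under 0.05. Over 5 other computations of the fold change, 37 of 45 member values moved by less than their derived error, 8 moved by more or had none, and no called gene changed sign. Ttr ranged from 2.83 with a pseudocount of 1 to 4.04 with the GC and length trend removed, which also gave Dio2 0.26, Crym -0.05 and Thra 0.06. The trend removal turned Dio3, which was not called, from -0.014 to 0.051, and centring turned it to 0.0073. Centring shifted all values by 0.021. Of 78 list medians recomputed, 77 moved by less than the median derived error of their members, and that of the medium spiny neuron markers went from -0.03 to -0.00063 with the trend removed. The ependymal median kept its sign but moved from -0.28 to between -0.12 and -0.17 under 3 of the settings, a shift within that error. Leaving out single libraries was not run, since only group values were analysed. No paired analysis was possible because the columns carry 1 value per group and no replicate number.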

Other observations

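The 3 tested records of at least 1 FPKM nearest to Ttr in log2 fold change, over 2 group values, were distant from it: Gm3054 at 2.66, Ranbp3l at 1.39 and Gm13235 at 6.75, and none was called in the authors' deposited table. Like Ttr, these 3 passed the level filter only through the cocaine value, with saline values of 0.190, 0.448 and 0.0641 FPKM. The filter leaves out tested records below 1 FPKM in both groups. Among those, the choroid plexus marker Kcnj13 lay nearer to Ttr, at 3.14, and was not called. Nearest to Dio2 were Klhl18 (0.2905), Mrpl47 (0.2888) and 4732415M23Rik (0.2906), each within 0.0010 of it. Their deposited p-values were 0.108, 0.193 and 0.418, and none was called. Nearest to Crym were Tmbim6, Cdipt and Chchd2, each at -0.07 and none called, with deposited p-values of 0.143, 0.0478 and 0.0235.

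Fold and call were only loosely tied in the authors' deposited table. Of 12976 tested records of at least 1 FPKM, 228 had a log2 fold change at least that of Dio2, and 12 of the 228 were called while 35 had an unadjusted p under 0.05. Hr, with a fold close to that of Dio2, is among the records without a call. The median derived error of the 228 records was 0.418, against 0.0537 for Dio2. The Dio2 error is computed from the fold and p by which the gene was chosen, so this contrast is a description only.

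The genes also differ in their transcripts. The longest annotated transcript of Ttr has 1186 bases and that of Dio2 5815 bases, against a median of 3413 over genes of at least 1 FPKM. GC content was 43.4% for Dio2, 59.8% for Thra and 61.6% for Hr, against a median of 49.9%.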
